A study of Mus musculus with 12 samples.

Results

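The genes of 8 secreted proteins of the small leucine-rich proteoglycan family and its relatives were followed in embryonic mouse limbs of Lmx1b wild type and knockout animals. They were Bgn, Aspn, Ecm2, Fmod, Prelp, Omd, Ogn and Chad, the family members listed outside the gene cluster that holds Kera. Every probe set annotated to one of these 8 genes alone was taken, which gave 19 probe sets of the 34945 that named 1 gene and 8 genes of 18193. Ogn, Aspn, Ecm2 and Prelp had 2 probe sets each, Bgn had 3, Fmod had 6, and Omd and Chad had 1 each. The members were chosen by name, with earlier results of these data known.

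Small leucine-rich proteoglycans are matrix proteins whose curved core of leucine-rich repeats binds collagen, and many of them carry chondroitin, dermatan or keratan sulphate chains. They set the width and spacing of collagen fibrils and hold growth factors of the TGF-beta and BMP families in the matrix. In the embryonic limb they mark condensing cartilage, perichondrium, tendon and the dense connective tissue around them, and Lmx1b encodes a LIM homeodomain transcription factor needed for dorsal limb identity.

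Expression was measured in total RNA on 12 Affymetrix mouse arrays, 2 in each of 6 groups. The groups were C57BL/6 embryos, either Lmx1b +/+ (wild type, WT) or Lmx1b -/- (knockout, KO), at 11.5, 12.5 and 13.5 days post coitum (dpc), with forelimbs and hindlimbs together. Limb bud with girdle was sampled at the earlier stages. At 13.5 dpc the sample was the distal limb, labelled handplate. Each array read a pool of limbs, and separate embryos supplied the arrays of a group. Pool size was 3 limbs at 12.5 dpc and 6 at the other stages in the series text, but 6 at every stage in the extraction protocol. The labels do not describe the Lmx1b allele. Array names show 1 scan series per stage, each with WT and KO arrays. The stage therefore cannot be told apart from the scan series, nor 13.5 dpc from its different dissection. Values are log2 expression values, on which a difference of 1 is 2-fold. In whole tissue, fewer cells of a type and less RNA per cell cannot be told apart.

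The start regions of 4 members are shown because Aspn, Ogn and Chad had the largest gaps between the KO arrays of 12.5 dpc, as described below, and Bgn was the member called higher at 13.5 dpc in both genotypes. Each sequence is the 250 bases before the annotated start, from RefSeq on the GRCm38.p6 assembly, where all 8 members matched. All 4 lie on the plus strand, Aspn at chr13:49544193-49544442, Ogn at chr13:49607765-49608014, Chad at chr11:94564797-94565046 and Bgn at chrX:73483351-73483600. Capitals mark TATAAA read on either strand, and on the minus strand it reads TTTATA.
Aspn: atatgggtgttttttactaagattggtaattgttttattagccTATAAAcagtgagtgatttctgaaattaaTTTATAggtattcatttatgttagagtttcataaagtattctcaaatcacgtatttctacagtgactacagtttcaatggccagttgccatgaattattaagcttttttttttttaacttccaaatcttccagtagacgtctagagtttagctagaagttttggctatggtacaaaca
Ogn: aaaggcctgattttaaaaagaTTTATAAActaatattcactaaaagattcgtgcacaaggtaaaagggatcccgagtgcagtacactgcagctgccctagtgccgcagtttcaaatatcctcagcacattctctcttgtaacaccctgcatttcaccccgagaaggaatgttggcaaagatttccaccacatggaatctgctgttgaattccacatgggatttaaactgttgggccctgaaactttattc
Chad: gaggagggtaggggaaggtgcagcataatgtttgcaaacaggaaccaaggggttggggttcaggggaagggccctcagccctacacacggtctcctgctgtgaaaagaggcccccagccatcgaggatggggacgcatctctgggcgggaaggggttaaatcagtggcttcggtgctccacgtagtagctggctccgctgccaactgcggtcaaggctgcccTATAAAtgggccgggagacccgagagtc
Bgn: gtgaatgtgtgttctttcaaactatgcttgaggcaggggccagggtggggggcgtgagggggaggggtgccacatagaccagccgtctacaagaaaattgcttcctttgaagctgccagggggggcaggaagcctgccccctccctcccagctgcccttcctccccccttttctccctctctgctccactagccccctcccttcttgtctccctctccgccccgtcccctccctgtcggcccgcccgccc
The Aspn window holds TATAAA 207 bases before the start and its reverse 178 bases before it. In the Ogn window the motif and its reverse overlap, at 227 and 229 bases before the start. Chad has 1 copy, 28 bases before the start, and Bgn has none. Of the 8 members 3 held the motif on either strand, against 12.4% of 32851 windows of the same length. Chad was the 1 member with TATAAA on the plus strand of the gene between 40 and 21 bases before the start, a position found in 1.87% of all windows. The LIM homeodomain core TAATTA, searched on both strands, was in 0 of the 8 windows and in 4.8% of all windows. GC content was 30.0% for Aspn, 42.0% for Ogn, 60.4% for Chad and 64.4% for Bgn, beside a median of 52.4% over all windows. A match or its absence here describes letters only.

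In the gene order of the same RefSeq table, Ecm2, Aspn, Omd and Ogn follow one another on chromosome 13, and all 4 lie within the annotated span of Cenpp. Prelp and Fmod are neighbours on chromosome 1. Chad lies within the span of Acsf2 on chromosome 11, and Bgn lies on chromosome X between Haus7 and Atp2b3.

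A pair of arrays stood apart from the others. The second KO array at 12.5 dpc read Hspa1a, a heat-inducible chaperone gene, at 9.36, against 4.80 to 5.71 on the other arrays. Its mean over 16 cartilage genes was 8.42, against 9.35 on the first KO array and 9.41 and 9.49 in WT, and over 12 skeletal muscle genes it was 8.39 against 9.64, 9.25 and 9.46. The second KO array at 13.5 dpc read the embryonic globin gene Hbb-bh1 at 12.91, against 10.48, 9.05 and 8.40 on the other arrays of that stage, and the proximal limb gene Meis1 at 9.46 against 7.76, 7.12 and 7.01. It also had the highest Lmx1b value of the KO arrays, 8.88, where the other KO arrays lay between 5.60 and 7.48 and the WT arrays between 9.28 and 10.27. Whether the Lmx1b probes lie in the deleted part is not stated in the labels. Sox9, which specifies cartilage and is 1 of the 16 cartilage genes, read between 10.15 and 11.02 on all 12 arrays. All 16 had lower KO means averaged over stages. Genotype results for members are given below with and without these KO arrays where they turn on them.

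Biglycan and asporin belong to class I of the family, with which Ecm2 is often grouped. Biglycan (Bgn), which carries chondroitin or dermatan sulphate and binds collagen and TGF-beta, read 9.96 and 9.96 in WT at 11.5 dpc, 10.11 and 10.16 at 12.5 dpc, and 10.86 and 10.92 at 13.5 dpc. In KO its values were 9.96 and 10.09, then 10.28 and 9.82, then 10.88 and 10.64. The 4 arrays of 13.5 dpc were the highest of the 12 in both genotypes, and WT and KO overlapped at each stage. Asporin (Aspn), a member without a glycosaminoglycan attachment site that binds TGF-beta and collagen, read 4.12 and 4.54 in WT at 11.5 dpc, 6.12 and 6.35 at 12.5 dpc, and 6.27 and 6.00 at 13.5 dpc. Its KO values were 3.82 and 4.53, then 7.23 and 4.47, then 5.65 and 5.13. The KO arrays of 12.5 dpc therefore lay on opposite sides of both WT arrays, and at 13.5 dpc both KO arrays were below both WT arrays. Ecm2, a matrix protein with leucine-rich repeats, stayed between 3.71 and 4.41 on all 12 arrays, far below the median of all values on the array, 6.28.

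Fibromodulin, PRELP and osteomodulin belong to class II. Fibromodulin (Fmod), a keratan sulphate proteoglycan that binds collagen fibrils, read 8.20 and 8.04 in WT at 11.5 dpc, 8.72 and 9.00 at 12.5 dpc, and 9.93 and 9.88 at 13.5 dpc. Its KO values were 7.96 and 8.33, then 9.15 and 8.31, then 9.52 and 8.96. WT values climbed without overlap from stage to stage, and the KO arrays of 13.5 dpc were both below the WT arrays. Prelp, which links basement membrane to the underlying matrix, ranged from 6.40 to 6.92. Osteomodulin (Omd), a keratan sulphate proteoglycan known from bone, read 5.20 and 4.90, then 5.54 and 5.54, then 5.46 and 5.33 in WT, and 5.04 and 4.96, then 5.26 and 5.06, then 5.54 and 5.18 in KO. At 12.5 dpc both Omd values of KO were below both of WT.

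Osteoglycin and chondroadherin belong to classes III and IV. Osteoglycin (Ogn), which takes part in collagen fibril formation, read 9.24 and 8.97 in WT at 11.5 dpc, 10.19 and 10.40 at 12.5 dpc, and 9.93 and 10.40 at 13.5 dpc. Its KO values were 9.36 and 9.66, then 11.29 and 9.00, then 10.32 and 10.11. The KO arrays of 12.5 dpc held both the highest Ogn value of the series and a value inside the range of the 11.5 dpc arrays. Chondroadherin (Chad), a cartilage protein that binds integrin and collagen, read 5.51 and 5.76, then 6.51 and 6.77, then 7.03 and 6.85 in WT. In KO it read 5.29 and 5.53, then 6.68 and 5.35, then 6.54 and 6.03. The WT arrays of Chad were higher at each later stage without overlap, and its KO arrays of 13.5 dpc were both below the WT arrays. The probe sets used for Omd, Aspn, Ecm2 and Chad had means under the median of all values, where differences can be compressed. Compression was not examined here. Over the 12 arrays these probe sets spanned 0.64, 3.41, 0.70 and 1.74 in turn.

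**Figure D1:**
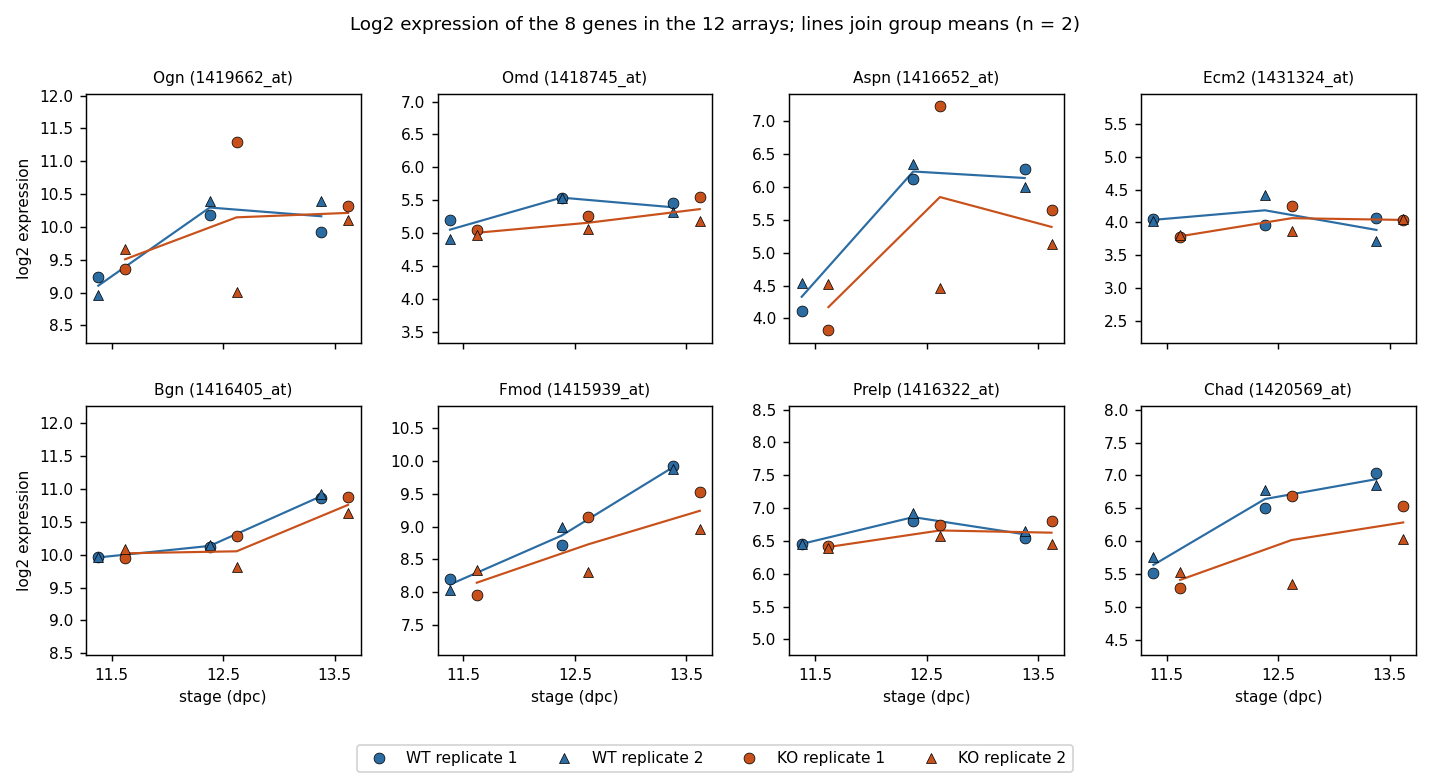
Log2 expression on each of the 12 arrays (vertical axis) by stage in dpc (horizontal axis), in 1 panel per gene, with WT in blue and KO in orange, circles for replicate 1, triangles for replicate 2 and lines through the group means. The KO points of 12.5 dpc lie far apart for Ogn (11.29 and 9.00), Aspn (7.23 and 4.47) and Chad (6.68 and 5.35), and Bgn and Fmod are highest at 13.5 dpc.

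Between 11.5 and 12.5 dpc, all 8 members had higher means in WT, and so did all 19 probe sets. Omd and Prelp passed the test, with Omd higher by 0.49 ± 0.14 (SE; limma, adjusted p = 0.0354) and Prelp by 0.41 ± 0.12 (adjusted p = 0.0402). That is 2 of 8 members called higher, where 6.67% of all genes were called higher and 19.8% in either direction. The second Prelp probe set differed by 0.0047 in this step and did not pass. The call of Prelp therefore rested on 1 of its 2 probe sets. The largest differences were those of Aspn, 1.91 ± 0.66 or 3.75-fold (adjusted p = 0.0668), Ogn, 1.19 ± 0.53 (adjusted p = 0.143), Chad, 1.00 ± 0.34 (adjusted p = 0.0643), and Fmod, 0.74 ± 0.26 (adjusted p = 0.0701), and these missed the threshold. Bgn differed by 0.18 (95% interval -0.14 to 0.49) and Ecm2 by 0.15 (-0.23 to 0.53). The members' median difference was 0.62, against -0.03 over all genes.

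Member calls in WT from 11.5 to 12.5 dpc changed with the array left out, and so did the number over all genes. The spread in this model is shared by all 6 groups, and the KO pair of 12.5 dpc widened it for Aspn, Ogn, Fmod and Chad. Without the second KO array of 12.5 dpc, 6 of 8 members were called higher in WT from 11.5 to 12.5 dpc, those 4 having joined Omd and Prelp. Without the first KO array of 12.5 dpc the count was also 6. Without any 1 of 7 other arrays it was 0, namely the second WT array of 11.5 dpc and either array of KO at 11.5 dpc, WT at 12.5 dpc or WT at 13.5 dpc. Without the first WT array of 11.5 dpc it was 1. Omd lost its call in 7 of 20 alternatives, with adjusted p of up to 0.255, and had no value when dim genes were left out. Prelp lost its call in 10 of 21, with adjusted p of up to 0.425.

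From 12.5 to 13.5 dpc the members called were Bgn and Fmod. Bgn rose in WT by 0.76 ± 0.14, or 1.69-fold (limma, adjusted p = 0.00475), and Fmod by 1.04 ± 0.26, or 2.06-fold (adjusted p = 0.0164). That is 2 of 8 members called higher against 14.5% of all genes, and 0 of 8 were called lower against 10.8%, or 25.3% called in either direction. Bgn kept its call in all 21 alternatives. Fmod lost it without the first WT array of 12.5 dpc (0.90, adjusted p = 0.0913), the first of 13.5 dpc (adjusted p = 0.0817) or the second of 13.5 dpc (adjusted p = 0.0795). Chad differed by 0.30 (95% interval -0.46 to 1.06), Aspn by -0.10 (-1.56 to 1.36), Ogn by -0.13 (-1.32 to 1.05), Omd by -0.15 (-0.46 to 0.16), Prelp by -0.26 (-0.53 to 0.0075) and Ecm2 by -0.30 (-0.68 to 0.08). The wide intervals of Aspn and Ogn leave room for changes of over 2-fold either way. Both stage steps share the WT arrays of 12.5 dpc, and the second also crosses the change in dissection. In that step 12 of 12 skeletal muscle genes and 7 of 7 erythroid genes had lower means in WT, 8 and 4 of them past the threshold, while 7 of 9 surface ectoderm genes (list median 1.18) and 5 of 10 perichondrium and connective tissue genes (list median 0.69) were called higher. Their part in the rise of Bgn and Fmod was not tested. Bgn is X-linked, and the sex make-up of the pools is not stated in the labels. Xist, the RNA of the inactive X chromosome, read 6.72 and 11.53 in WT at 12.5 dpc and 12.67 and 12.86 at 13.5 dpc, and the Y-linked gene Kdm5d read 8.70 and 7.52, then 5.55 and 3.02. Bgn read 10.11 and 10.16 on those WT arrays of 12.5 dpc. On the KO arrays of that stage, whose Xist values also lay far apart, it read 10.28 and 9.82. The part of sex make-up in the rise of Bgn was not tested.

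In KO, Bgn also rose from 12.5 to 13.5 dpc, by 0.71 ± 0.14 (limma, adjusted p = 0.00936). It was the 1 member of 8 called higher in that step, against 10.4% of all genes. The members called lower were 0, against 8.22% of all genes. The call was lost without the first KO array of 13.5 dpc (0.59, adjusted p = 0.0672). Of the 3 Bgn probe sets 1 passed in this KO step, with differences from 0.28 to 0.71. Fmod differed by 0.51 ± 0.26 in KO (adjusted p = 0.194). The later KO step also turned on the pair of 12.5 dpc. Without the first array of that pair Ogn (1.21), Bgn (0.94), Chad (0.94) and Fmod (0.93) were called higher at 13.5 dpc, and without the second Aspn (-1.84) and Ogn (-1.08) were called lower while Bgn (0.47) stayed called higher. From 11.5 to 12.5 dpc all 8 members had higher KO means and limma called 0 of 8 higher, against 6.22% of all genes and 16.8% in either direction. Among them Aspn differed by 1.67 ± 0.66 (adjusted p = 0.111) and Fmod by 0.58 ± 0.26 (adjusted p = 0.157), the 2 members with an unadjusted p under 0.05. Over all genes 5637 of 18193 had an unadjusted p under 0.05 in this step. Without the second KO array of 12.5 dpc, 4 members were called higher in this step, namely Aspn (3.06), Ogn (1.78), Chad (1.28) and Fmod (1.00).

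In WT the probe sets of Fmod differed in the step where they passed the test, whereas those of Bgn passed in the same step. For Bgn, 3 of 3 probe sets were higher in WT at 13.5 than at 12.5 dpc, by 0.51 to 0.76, and passed the test over all named probe sets. For Fmod, 5 of 6 did, by 1.04 to 1.56. The other, 1456084_x_at, read 7.49 and 7.33 in WT at 11.5 dpc, 8.76 and 8.94 at 12.5 dpc, and 9.48 and 9.24 at 13.5 dpc. It rose in the earlier step, by 1.44 ± 0.34 (limma, adjusted p = 0.0185), and differed by 0.51 ± 0.34 in the later one (adjusted p = 0.308). Another 4 Fmod probe sets, 1437324_x_at, 1437685_x_at, 1437718_x_at and 1438966_x_at, differed by 0.15 to 0.41 in the earlier step and did not pass there. The ending _x_at, on 5 Fmod probe sets and 1 of Bgn, marks probes that may also match other transcripts. The 2 probe sets of Prelp had opposite signs in the later step, -0.26 for 1416322_at and 0.50 for 1416321_s_at, and neither passed.

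**Figure D2:**
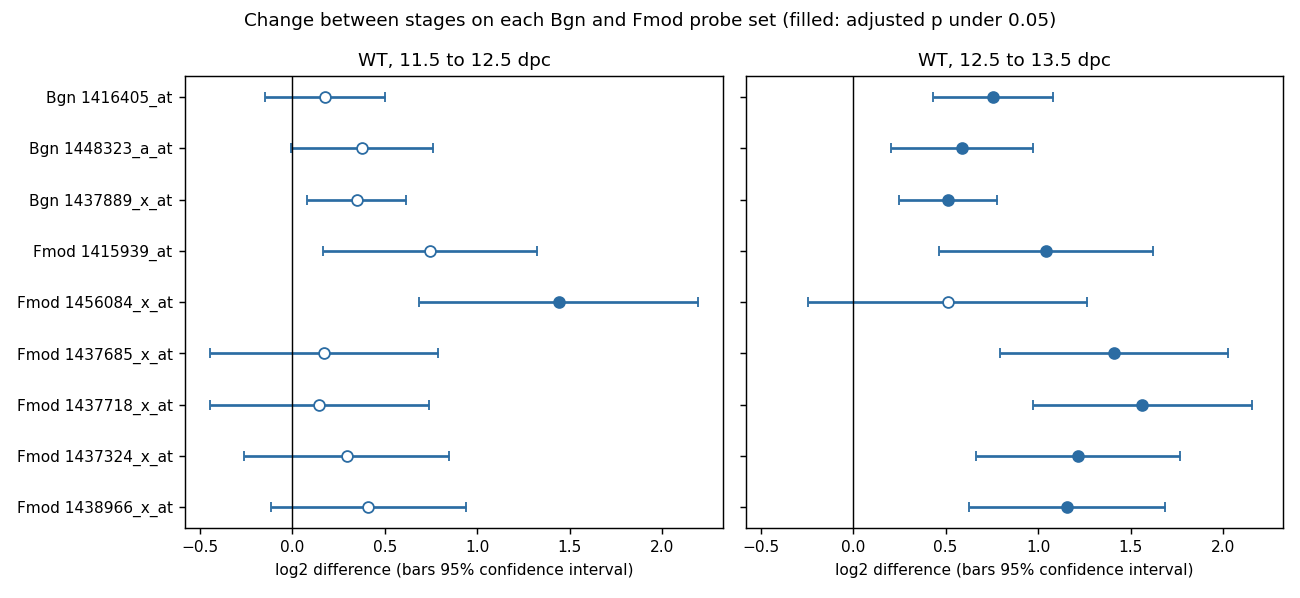
Change in WT between stages on the log2 scale (horizontal axis) for each probe set of Bgn and Fmod, with bars for 95% intervals and filled points where the adjusted p was under 0.05. All 3 Bgn probe sets and 5 of 6 Fmod probe sets are filled for 13.5 minus 12.5 dpc, and 1456084_x_at of Fmod is filled for 12.5 minus 11.5 dpc.

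The main question of the series is which genes differ between the genotypes. Averaged over the 3 stages, limma called 0 of 8 members different between KO and WT, where 0.203% of all genes were called, 0.187% lower in KO. Chad was the 1 member with an unadjusted p under 0.05, beside 1249 of 18193 genes. Its difference was -0.50 ± 0.20 with a 95% interval of -0.94 to -0.07 (limma, unadjusted p = 0.0281, adjusted p = 0.645). Aspn differed by -0.43 (95% interval -1.27 to 0.41), Fmod by -0.26 (-0.59 to 0.08), Omd by -0.15 (-0.33 to 0.03), Ecm2 by -0.07 (-0.29 to 0.15), Prelp by -0.07 (-0.23 to 0.08), Bgn by -0.05 (-0.23 to 0.13) and Ogn by 0.10 (-0.58 to 0.79). The intervals of Omd, Ecm2, Prelp and Bgn all stayed between -0.33 and 0.15, whereas those of Aspn and Ogn were wide. Of the 8 members 7 were lower in KO, as were 18 of the 19 probe sets, beside 58.6% of all genes, and the members' median was -0.11 against -0.02 over all genes.

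On this average Omd, Fmod, Prelp and Chad stayed lower in KO whichever single array was left out. The signs of Ogn, Aspn and Bgn, and which members were called, turned on the KO pair of 12.5 dpc. Without its first array, Chad (-0.73, adjusted p = 0.00927) and Aspn (-0.89, adjusted p = 0.0174) were called lower in KO on average by limma. Without the second KO arrays of 12.5 and 13.5 dpc together, Aspn differed by 0.12, Chad by -0.20 (adjusted p = 0.445) and Ogn by 0.52 (adjusted p = 0.167), and 4 of 8 members were lower in KO.

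**Figure D3:**
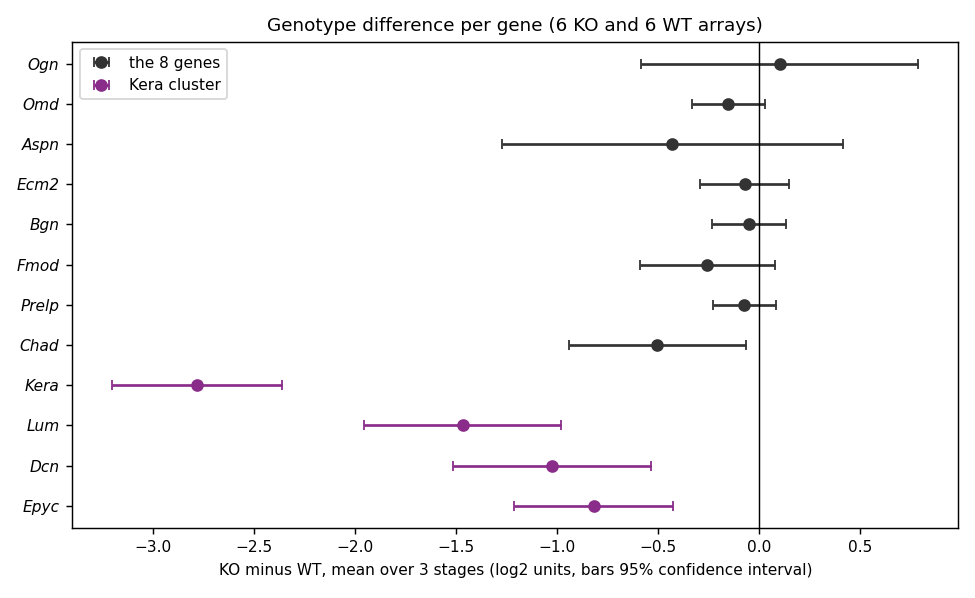
KO minus WT on the log2 scale, averaged over the 3 stages (horizontal axis), for the 8 members and the 4 genes of the Kera cluster, with bars for 95% intervals. The interval of Chad lies just below 0, from -0.94 to -0.07, the other 7 members' intervals include 0, and those of Kera, Lum, Dcn and Epyc lie below 0.

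The Kera cluster gives the scale of a genotype difference within the same protein family. Keratocan (Kera) differed by -2.78 on average (95% interval -3.20 to -2.36), lumican (Lum) by -1.47 (-1.96 to -0.98), decorin (Dcn) by -1.03 (-1.52 to -0.54) and epiphycan (Epyc) by -0.82 (-1.21 to -0.43). Of these 4 genes 2 passed the threshold. The intervals of 6 members lie above the Epyc estimate, and those of Aspn and Chad reach past it. No test compared these genes with the members.

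Stage by stage, limma called 0 of 8 members in KO against WT at 11.5, 12.5 or 13.5 dpc, where 0.0165%, 0.0385% and 0.0275% of all genes were called, with 0.011% called higher in KO at 12.5 dpc. Members with an unadjusted p under 0.05 numbered 0 at 11.5 dpc, 1 at 12.5 dpc (Omd) and 1 at 13.5 dpc (Fmod). Over all genes 298, 1981 and 1073 of 18193 had an unadjusted p under 0.05 at these stages in turn. At 11.5 dpc Ogn was above both WT arrays on both KO arrays, and Ecm2 and Prelp were below on both. At 12.5 dpc all 8 means were lower in KO, beside 54.3% of all genes. Of the 19 probe sets, however, 13 were lower and 6 higher, and 5 of the 6 Fmod probe sets were higher. Chad differed by -0.62 ± 0.34 (adjusted p = 0.551), Aspn by -0.39 ± 0.66 (adjusted p = 0.888) and Omd by -0.38 ± 0.14 (limma, adjusted p = 0.362). At 13.5 dpc Aspn differed by -0.74 ± 0.66 (adjusted p = 0.953), Fmod by -0.66 ± 0.26 (limma, adjusted p = 0.798) and Chad by -0.66 ± 0.34 (adjusted p = 0.895), and these were the members whose KO arrays both lay below both WT arrays. Both KO arrays lay below both WT arrays for 26.8%, 19.3% and 22.3% of all genes at the 3 stages in turn, and for 2, 2 and 3 of the 8 members. Both lay above for 12.8%, 15% and 11.6% of genes, and for 1, 0 and 0 members. Without the second KO array of 13.5 dpc, the differences at that stage were -0.38 for Fmod, -0.40 for Chad and -0.49 for Aspn. Without the first they were -0.95, -0.92 and -1.003, and limma called none of the 3 in either case (adjusted p of 0.846, 0.887 and 0.937 without the second, and 0.267, 0.438 and 0.699 without the first). All 6 Fmod probe sets were lower in KO at 13.5 dpc, by -0.66 to -0.51. The difference of the KO effect between stages was called for 0 members and 0% of all genes in each of 3 comparisons, with 0 members at an unadjusted p under 0.05. There 1132, 1546 and 377 genes had an unadjusted p under 0.05.

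The arrays of the KO pair at 12.5 dpc differed widely for some members. Aspn read 2.76 lower on the second array than on the first, Ogn 2.29 lower, Chad 1.34 lower and Fmod 0.83 lower. The absolute gaps of these genes stood at percentiles 99.9, 99.9, 99.1 and 97.0 among all genes, whose median gap in that pair was 0.167. Bgn (-0.46), Ecm2 (-0.39), Omd (-0.20) and Prelp (-0.18) had smaller gaps. The second array was below the WT mean of its stage for 8 of 8 members and 18 of 19 probe sets, with a median of -0.52, and 55.6% of all genes were below on that array with a median of -0.03. The first array was below for 2 of 8 members and 3 of 19 probe sets. For 6 of 8 members the second array's value fell inside the range of the 11.5 dpc arrays. The share of all genes with such a value was not counted. Bgn read 9.82, under that range of 9.96 to 10.09, and Prelp read 6.57, above its range of 6.40 to 6.46.

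Left alone, each array of the pair gave a different answer. Without the first array, KO minus WT at 12.5 dpc was -1.77 for Aspn, -1.29 for Ogn and -1.29 for Chad. Without the second, the same genes differed by 0.99, 0.99 and 0.04. In these fits the lone array is taken to vary like the other groups. Beside these gaps, the second array read Myh3, the embryonic myosin heavy chain, at 9.54 against 11.44 on the first array. Its means over 7 tendon and ligament genes and 23 collagen partners were 7.27 and 9.24, against 8.32 and 9.97, and its mean over 5 heat shock genes was 10.28 against 9.08. On the first array Xist read 6.49 and Kdm5d 8.08, and on the second they read 12.45 and 3.16. Their part in the result was not tested. Kera read 6.37 and 6.34 on the same pair, against 10.01 and 10.03 in WT.

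At 13.5 dpc the second KO array was below the WT mean for 7 of 8 members and 18 of 19 probe sets, and the first for 4 of 8 members and 15 of 19 probe sets, beside 50.9% and 59.9% of all genes. On the second array the mean over the cartilage list was 8.94, against 9.47 on the first and 9.94 and 9.97 in WT. The erythroid mean was 10.44 on the second array against 9.51, 9.30 and 9.11. Their part in the lower Fmod, Chad and Aspn values of this array was not tested.

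**Figure D4:**
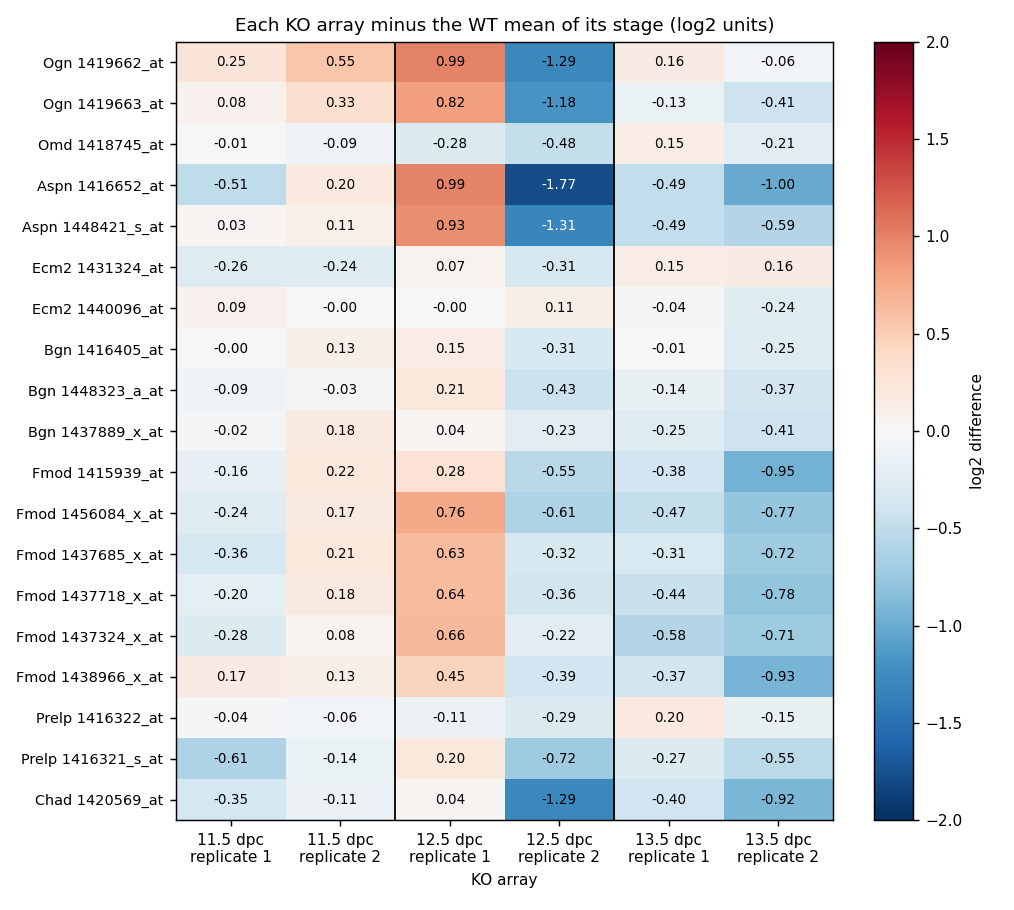
Each KO array minus the WT mean of its stage on the log2 scale (colour), for the 19 probe sets (rows) on the 6 KO arrays (columns). The second array of 12.5 dpc is below WT for 18 of 19 probe sets and the first for 3 of 19, and the second array of 13.5 dpc is below for 18 of 19.

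Genes that build or accompany these proteins were counted in the same fit. Of 4 further family members measured, Optc, Podn, Nyx and Chadl, limma called 0 in KO against WT averaged over stages, with Nyx at -0.32 (adjusted p = 0.319), and 2 had an unadjusted p under 0.05. Chadl, a relative of Chad, rose in WT from 12.5 to 13.5 dpc by 1.28 (adjusted p = 0.00244). Of 29 genes for the synthesis of glycosaminoglycan chains, 24 had lower KO means and 0 passed, with 6 at an unadjusted p under 0.05 and a median of -0.10. Among them were Papss2, which makes the sulphate donor (-0.75), and Chst11, a chondroitin sulphotransferase (-0.37, adjusted p = 0.0804). In WT, 5 of the 29 rose and 6 fell from 11.5 to 12.5 dpc, where 6.67% of all genes rose and 13.1% fell. From 12.5 to 13.5 dpc 10 rose and 1 fell, against 14.5% and 10.8% of all genes. Chpf, which extends chondroitin chains, rose by 1.00 in the later step (adjusted p = 0.00103), and Csgalnact2, which starts them, rose by 0.83 in the earlier one (adjusted p = 0.00109).

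Of 23 measured genes for fibrillar collagens, their partners and their processing, 21 had lower KO means and 0 passed, with 7 at an unadjusted p under 0.05 and a median of -0.18. Lox, which crosslinks collagen, differed by -0.82, the fibril-associated collagen Col14a1 by -0.72 and Col11a1, a cartilage collagen chain, by -0.45. In WT, 4 of the 23 rose from 11.5 to 12.5 dpc (6.67% of all genes), among them Col11a1 by 1.19 and the cartilage collagen Col2a1 by 0.91. From 12.5 to 13.5 dpc 6 rose (14.5% of all genes), among them the procollagen protease Bmp1 by 0.54 and Loxl1 by 0.76, and Tnxb fell by 0.56. All 16 cartilage genes had lower KO means (median -0.48), with 0 past the threshold and 13 at an unadjusted p under 0.05. Over all genes 1249 had an unadjusted p under 0.05 in the average comparison. These counts also turned on the KO pair of 12.5 dpc. Without its first array, 5 chain synthesis genes, 7 collagen partners and 9 cartilage genes were called lower by limma, beside 388 of all genes. Without its second array 0, 0 and 2 were called lower, and without the second array of 13.5 dpc 0, 0 and 0. Without both second arrays 20 of 29, 15 of 23 and 16 of 16 had lower KO means, beside 59.7% of all genes, and 0, 0 and 1 were called lower.

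Across the 12 arrays, Aspn and Chad followed each other with a Pearson r of 0.920, Bgn and Fmod with 0.917, Fmod and Chad with 0.895, and Ogn and Aspn with 0.887, while Bgn and Ecm2 had -0.02. These arrays share stages and normalization, and the KO pair of 12.5 dpc holds the largest gap within a group for each of Aspn, Ogn, Chad, Fmod and Bgn. Without that pair, r over 10 arrays was 0.972 for Aspn with Chad, 0.934 for Bgn with Fmod, 0.901 for Fmod with Chad and 0.834 for Ogn with Aspn. After group means were removed, r was 0.977 for Aspn with Chad, 0.952 for Bgn with Fmod and 0.915 for Ogn with Aspn, and without the pair it was 0.898, 0.912 and 0.185. Among 11540 genes with means above the median of all values, those most like each member over the 12 arrays were taken as a description. For Aspn they were Plce1 (r = 0.983), Cd200 (0.971) and Acat1 (0.968). For Chad they were Jazf1 (0.986), the cartilage matrix gene Matn4 (0.983) and 2510009E07Rik (0.981). For Fmod they were Cxcl14 (0.988), Rdh10 (0.986) and Ltbp3 (0.985), and for Bgn they were Mmp11 (0.987), Arsi (0.984) and Htra1 (0.982). The closest genes of Ogn were Stx7 (0.926), Epm2aip1 (0.914) and Angptl1 (0.910). For Omd the closest was Fat2 (0.928), for Prelp Ccdc180 (0.919), and for Ecm2 C2cd2l (0.886).

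Genes next to the members on the chromosome were read in the same fit. Of the 8 neighbours, Acsf2, Atp2b3, Btg2, Cenpp, Haus7, Lrrc59, Nol8 and Optc, limma called 0 in KO against WT averaged over stages, with 0 at an unadjusted p under 0.05, Cenpp at 0.04, Nol8 at 0.13 and Acsf2 at -0.14. In WT from 12.5 to 13.5 dpc, Nol8, which follows Ogn, fell by 0.86 (adjusted p = 0.00111), and Cenpp, whose span holds Ogn, Omd, Aspn and Ecm2, fell by 0.42 (adjusted p = 0.0305). Acsf2, whose span holds Chad, rose by 0.92 (adjusted p = 0.000992).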

How the data were processed

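Gene expression was measured in 12 pools of mouse embryonic limb RNA on biotin-labelled 1-colour arrays. The authors deposited log2 values of 45101 probe sets, for which the submitters' processing notes name RMA without a version. RMA subtracts background, brings arrays to a common distribution and combines the probes of a set. The sorted columns differed by at most 0.242 at any rank, so the arrays had nearly 1 distribution, and background correction could not be varied. The number of arrays limits the precision.

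Gene names came from the platform annotation, without 64 control probe sets. 34945 probe sets named 1 gene, 932 several and 9160 none. By gene identifier 34741 were matched to a RefSeq table of GRCm38.p6, which changed 0 symbols and served for names and gene order. A gene was read by its probe set with the highest mean, which left 18193 genes. A model of the 6 group means was fitted over the 12 arrays (limma 3.58.1, R 4.3.3; 6 residual and 4.22 prior degrees of freedom), with 11 contrasts, two-sided tests, 95% intervals from the moderated fit and Benjamini-Hochberg adjustment over all genes at 0.05. Member probe sets were tested in a second fit over all named probe sets. The fit was tested on simulated data.

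The members and gene lists were chosen with earlier results of these data known, and no list test was made. Of each list up to 4 genes are named, those with the smallest adjusted p past the threshold, otherwise those with the largest KO minus WT mean; marker genes of the arrays that stand apart are named too, as are the 3 genes most correlated with a member and the nearest measured genes; the text gives fewer in places. Lists not described further (tendon, bone, perichondrium, muscle, erythroid, endothelium, macrophage, ectoderm, neuron, proximal limb, heat shock) served as markers. Same-numbered KO and WT arrays correlated by 0.19, -0.12 and -0.09 at the 3 stages after group means were removed, so the numbers were not taken as pairs.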

Additional observations from a re-analysis of the deposited data

How the results depend on the processing

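Each comparison was repeated with other probe set summaries, filters, priors, weights and normalization, with fewer arrays and with each array left out in turn, when a lone array is taken to vary like the other groups. The fit on only the arrays compared could not be applied to the average over stages, which uses all 12. The cause of the changes below was not tested beyond the arrays left out.

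Members called higher in WT from 11.5 to 12.5 dpc numbered 2, but 1 with the mean of all probe sets, with dim genes left out and with an intensity trend and robust prior, and 6 with array weights, with only the arrays compared and without the second KO arrays of 12.5 and 13.5 dpc. Leaving out 1 array gave 0 to 6. From 12.5 to 13.5 dpc in WT it gave 1 to 2 (2 with all arrays), and without both second KO arrays 1 member, Prelp, was called lower (-0.26, adjusted p = 0.0258, limma). In KO from 11.5 to 12.5 dpc, 0 were called higher, 5 without both second KO arrays and 0 to 4 with 1 array left out. From 12.5 to 13.5 dpc in KO, 1 was called higher, 0 with array weights or only the arrays compared, and 0 to 4 with 1 array left out, and 0 were called lower, 2 without both second KO arrays and 0 to 2 with 1 left out. Members called lower in KO numbered 0 to 2 on average over stages and 0 to 3 at 12.5 dpc with 1 array left out.

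Signs turned when 1 array was left out. On average over stages KO minus WT ran from -0.28 to 0.48 for Ogn, -0.89 to 0.03 for Aspn, -0.15 to 0.0033 for Ecm2 and -0.13 to 0.03 for Bgn. At 11.5 dpc it ran from -0.20 to 0.10 for Omd, -0.51 to 0.20 for Aspn, -0.0016 to 0.13 for Bgn and -0.16 to 0.22 for Fmod. At 12.5 dpc it ran from -1.29 to 0.99 for Ogn, -1.77 to 0.99 for Aspn, -0.35 to 0.11 for Ecm2, -0.31 to 0.15 for Bgn, -0.55 to 0.28 for Fmod and -1.29 to 0.04 for Chad. At 13.5 dpc it ran from -0.18 to 0.29 for Ogn, -0.21 to 0.15 for Omd, -0.0228 to 0.33 for Ecm2 and -0.15 to 0.20 for Prelp. In WT the earlier step ran from -0.0815 to 0.37 for Ecm2, and the later one from -0.37 to 0.10 for Ogn and -0.24 to 0.0371 for Aspn. In KO the earlier step ran from -0.51 to 1.78 for Ogn, -0.20 to 0.26 for Bgn and -0.061 to 1.28 for Chad. The later one ran from -1.08 to 1.21 for Ogn, -1.84 to 0.93 for Aspn, -0.22 to 0.17 for Ecm2, -0.21 to 0.14 for Prelp and -0.40 to 0.94 for Chad.

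Without both second KO arrays, KO minus WT turned on average for Aspn (0.12), Bgn (0.0671) and Prelp (0.0145), at 12.5 dpc for Ogn (0.99), Aspn (0.99), Ecm2 (0.07), Bgn (0.15), Fmod (0.28) and Chad (0.0439), and at 13.5 dpc for Omd (0.15). On average Ogn was 0.52 higher in KO, and the later KO step of Ecm2 was -0.23. That step turned for Ogn (-0.97), Prelp (0.05) and Chad (-0.14). With the mean of all probe sets, KO minus WT turned for Fmod at 11.5 dpc (-0.0074) and 12.5 dpc (0.0808) and for Ogn (-0.11) and Prelp (-0.19) at 13.5 dpc. The later step turned in WT for Ogn (0.16) and Prelp (0.12) and in KO for Prelp (0.15).

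Counts of the gene lists and correlations without the arrays that stand apart were added after seeing the data.

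With the replicate number as a block, no member count changed, and genes called in KO against WT on average numbered 22, against 37 without the block. Leaving out 1 array moved that count between 6 and 434, the latter without the first KO array of 12.5 dpc.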

Other observations

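The second probe sets of 2 members repeated the gap of the KO pair at 12.5 dpc. Ogn probe set 1419663_at read 10.32 on the first array and 8.32 on the second, against 9.47 and 9.54 in WT. Aspn probe set 1448421_s_at read 5.07 and 2.84, against 4.15 and 4.13 in WT and 2.70 to 2.88 on the 4 arrays of 11.5 dpc. The second Ecm2 probe set, 1440096_at, stayed between 3.17 and 3.67 on all 12 arrays. Prelp probe set 1416321_s_at read 6.65 and 5.72 on the same KO pair, against 6.49 and 6.40 in WT.

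Other connective tissue genes differed by stage in WT. Of 16 cartilage genes, 9 rose from 11.5 to 12.5 dpc (median of the list 0.80), against 6.67% of all genes, and 5 rose from 12.5 to 13.5 dpc (median 0.40), against 14.5% of all genes.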
